A study of Homo sapiens with 6 samples.

Results

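Glycolysis splits glucose into pyruvate in the cytosol, and 34 genes of this route, of the lactate branch and of the entry of pyruvate into mitochondria were followed in U251 cells after knockdown of TEAD3. U251 is a long-established line of human glioma cells. TEAD3 encodes a TEAD family transcription factor, which binds DNA with the coactivators of the Hippo pathway. The genes were chosen by name from textbook roles, though with earlier results of these data known. They are 34 of the 60612 gene identifiers counted, and all 34 passed the filter on low counts that left 17723 genes for testing. There were 3 knockdown libraries and 3 control libraries of polyadenylated RNA from bulk cultures. Cells were transfected transiently, with a plasmid vector and an siRNA both mentioned in the labels and no word on which gave the knockdown; its efficiency was checked at about 36 h. The comparison cells are called a normal control, and what those received is not stated. All cells were grown in medium with 10% foetal bovine serum. No label says that the replicates were separate cultures, so p-values here cover only library-to-library spread, possibly technical in origin. In bulk RNA, fewer cells with a transcript and less of it per cell cannot be told apart.

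Glucose enters cells through transporters of the SLC2A family, is phosphorylated by hexokinase, and is committed to glycolysis by phosphofructokinase, which is activated by the product of the PFKFB enzymes. The steps from aldolase to pyruvate kinase then yield ATP and pyruvate. Pyruvate is either reduced to lactate by lactate dehydrogenase and exported by monocarboxylate carriers, or imported into mitochondria by the MPC carrier and oxidised by pyruvate dehydrogenase, which the PDK kinases inhibit. Many of these genes are known targets of hypoxia-inducible factors (HIF) and of MYC, and tumour cells, gliomas among them, are known for high glycolytic flux even with oxygen present.

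Promoter windows are shown for 4 of the genes from the aldolase to pyruvate kinase stretch, where the groups did not overlap for 7 of 8 genes (21.6% of all genes tested had such groups). They are the genes of that stretch whose groups did not overlap, which had a single start in the RefSeq table (GRCh38.p14), and whose window held a searched motif. Each window runs from 250 bases before that start to 50 bases from it, 5′ to 3′ on the gene's strand. Capitals mark GGAATG, the core letters of the TEAD binding motif, and ACGTG, which holds the core of the hypoxia response element, each searched on both strands.
ENO1 (chr1:8878637-8878936, minus strand): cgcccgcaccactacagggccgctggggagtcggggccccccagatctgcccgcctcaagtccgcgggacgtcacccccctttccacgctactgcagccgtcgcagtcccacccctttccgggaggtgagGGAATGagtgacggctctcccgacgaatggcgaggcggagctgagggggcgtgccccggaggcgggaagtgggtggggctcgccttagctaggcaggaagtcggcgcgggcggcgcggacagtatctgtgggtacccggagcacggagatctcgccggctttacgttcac
PGAM1 (chr10:97427568-97427867, plus strand): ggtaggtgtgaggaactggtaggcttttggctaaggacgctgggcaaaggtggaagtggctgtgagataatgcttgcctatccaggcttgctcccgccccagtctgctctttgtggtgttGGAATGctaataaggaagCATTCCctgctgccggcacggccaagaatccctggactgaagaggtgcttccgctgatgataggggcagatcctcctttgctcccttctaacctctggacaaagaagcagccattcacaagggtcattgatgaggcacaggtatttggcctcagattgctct
GAPDH (chr12:6535014-6535313, plus strand): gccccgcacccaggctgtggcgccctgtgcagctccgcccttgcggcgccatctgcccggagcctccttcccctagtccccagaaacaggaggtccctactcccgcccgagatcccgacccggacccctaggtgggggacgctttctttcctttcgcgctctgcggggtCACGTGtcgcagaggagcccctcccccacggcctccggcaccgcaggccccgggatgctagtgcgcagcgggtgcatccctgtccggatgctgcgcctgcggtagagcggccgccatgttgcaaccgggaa
PGK1 (chrX:78103998-78104297, plus strand): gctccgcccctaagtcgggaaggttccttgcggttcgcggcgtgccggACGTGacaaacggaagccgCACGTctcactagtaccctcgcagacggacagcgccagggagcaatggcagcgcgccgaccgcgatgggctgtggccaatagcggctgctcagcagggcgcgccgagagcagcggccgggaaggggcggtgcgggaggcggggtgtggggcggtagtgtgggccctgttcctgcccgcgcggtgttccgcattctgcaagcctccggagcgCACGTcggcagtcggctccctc

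The window of ENO1 held 1 GGAATG match and that of PGAM1 held 2, on opposite strands, while the windows of GAPDH and PGK1 held none. ACGTG matched 2 times in GAPDH and 3 times in PGK1. The 2 matches in GAPDH are the same CACGTG palindrome read on each strand, the letters of the E-box bound by MYC. The starts used lie 564 bases inside the outermost start annotated in GENCODE 29 for ENO1, 1658 for PGAM1, 1337 for GAPDH and 193509 for PGK1. Which start gave the counted transcripts was not tested, and these distances do not tell it. A window need not be the promoter in use, and its motifs need not bear on the levels below. In all, 31 of the 34 genes had a start in the table, with 61 windows; SLC2A3, SLC16A1 and PFKFB2 had no entry. GGAATG or its reverse complement was in 7 of the 61 windows (11.5%), against 14.0% of all 35116 windows of this length. ACGTG was in 21 of the 61 (34.4%), against 21.4% of all windows, and CACGTG, which contains it, in 7 (11.5%), against 7.26%.

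The knockdown itself was measured first. TEAD3 (ENSG00000007866, chromosome 6, 35473597 to 35497076, minus strand, GRCh38) was at 4.70, 8.35 and 6.08 CPM (counts scaled by library size, TMM-normalised) in knockdown replicates 1 to 3, against 14.9, 20.3 and 21.0 CPM in control replicates 1 to 3. Every knockdown library lay below every control, a log2 fold change (knockdown over control throughout) of -1.55 with standard error (SE) 0.218 (edgeR adjusted p = 0.0114). That call ended without knockdown replicate 1 (adjusted p = 0.0532), knockdown replicate 3 (0.0938) or control replicate 3 (0.0541). Totals were 63145768 to 64808615 counts in the knockdown libraries and 58344026 to 63685272 in the controls. Of 7 glioma and astroglial markers, VIM stood at 3679 ± 262 CPM in the knockdown and 4484 ± 311 CPM in controls (SD, n = 3 each) and CD44 at 616 ± 39.5 and 648 ± 42.6 CPM, whereas GFAP, the classical astrocyte marker, was at most 1.80 CPM in any library. Of 5 myeloid markers, CD68, a lysosomal protein of macrophages and other cells, was at 123 to 144 CPM in the knockdown and 124 to 154 CPM in controls; CSF1R was at most 0.969 CPM, PTPRC and CX3CR1 at most 0.122 CPM, and AIF1 had no count in any library. None of the marker lists for glial, neuronal, myeloid, endothelial or epithelial cells had a called gene.

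None of the 34 genes changed past the threshold. Over all 17723 genes, 0.655% were called at an edgeR adjusted p under 0.05, and among the 34 genes the count was 0, with a smallest adjusted p of 0.167 for SLC2A3. DESeq2 and limma-voom, which called 4.92% and 0.677% of all genes, also called 0 of the 34. The smallest DESeq2 adjusted p was 0.0606 for TPI1, then 0.0634 for SLC2A3, 0.0736 for ALDOA and 0.0755 for PGK1. Without control replicate 2, edgeR called SLC16A3 (adjusted p = 0.0441) and 3.19% of all genes. In that fit TPI1 was at an edgeR adjusted p of 0.0531, and PGK1 and ENO2 at 0.0551 each. At an unadjusted p under 0.05 there were 8 of the 34 (23.5%), 5 of them with a positive and 3 with a negative fold change, where 15.6% of all genes reached that level. Fold changes were above 0 for 18 genes and below 0 for 16, with a median of 0.04 on the log2 scale, against a median of -0.0012 over all genes. The extremes were 0.37 for SLC16A3 and -0.34 for SLC2A3. The groups did not overlap for 10 of the 34 genes (29.4%), against 21.6% of all genes tested. The knockdown lay above for 6 of the 34 (17.6%, against 11%) and below for 4 (11.8%, against 10.6%). The 95% interval of the fold lay within 2-fold either way for all 34 genes and within 1.5-fold for 29. The intervals were taken gene by gene, with no adjustment over the 34. They cover library-to-library spread only, so a change between separate cultures need not be bounded by them. The lowest count of any of the 34 genes in any library was 151.

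**Figure D1:**
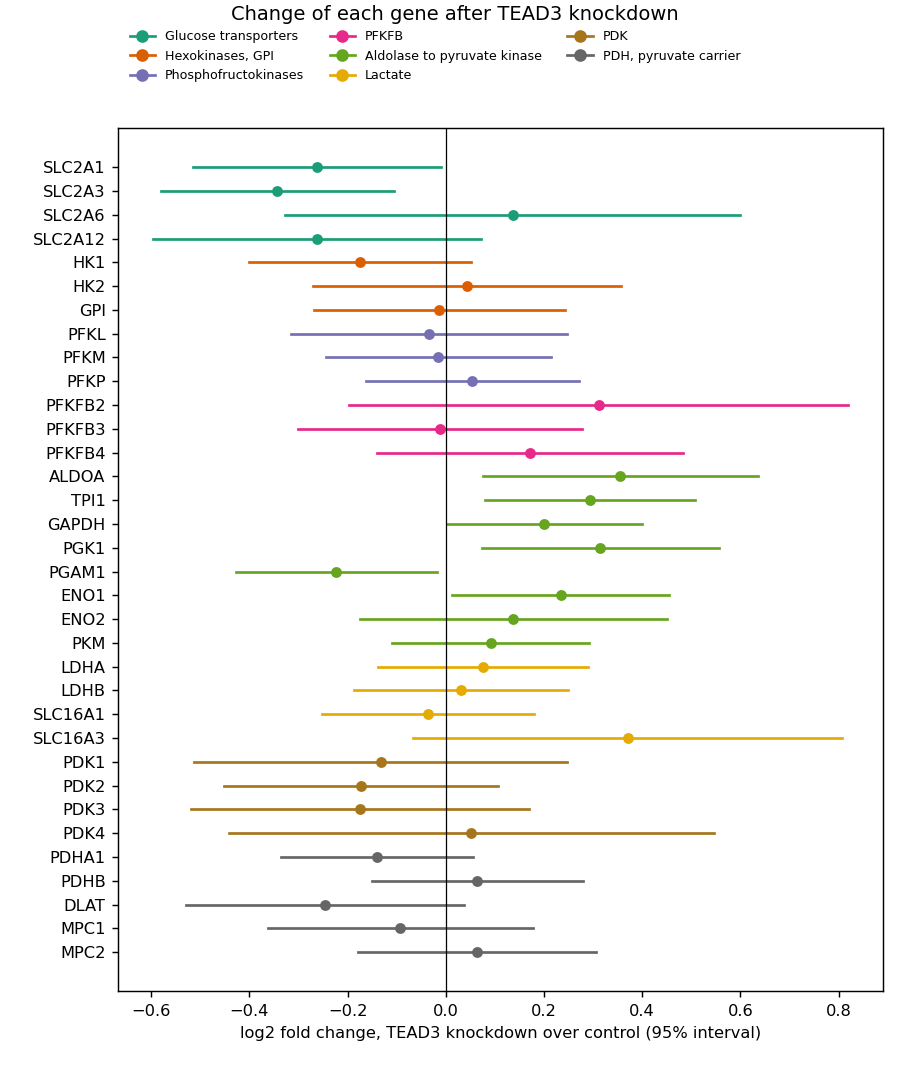
Fold change of each of the 34 genes on the log2 scale, knockdown over control, with bars for the 95% interval from the edgeR fit; colours and order follow the route from glucose entry to pyruvate oxidation. All points lie between -0.34 and 0.37, and the points from ALDOA to PKM, PGAM1 apart, lie to the right of 0.

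Levels differed far more between genes than between conditions. Per kilobase of transcript, so that genes can be set side by side, GAPDH was highest with 3193 CPM per kb in the knockdown and 2778 in controls. It was followed by PKM (1370 and 1286), TPI1 (1357 and 1107), ENO1 (889.8 and 757) and, lower, by ALDOA (603 and 471), PGAM1 (438 and 511) and LDHB (360.5 and 353). PKM and TPI1 were within the spread of each other in the knockdown, as were ALDOA and PGAM1 in controls. At the other end stood PFKFB2 (0.643 and 0.518 CPM per kb) and PDK1 (0.447 and 0.490). The level of PDK1 per kb rests on a reference transcript of 14193 nucleotides, the longest of the 34, and would be higher if a shorter form is the one expressed. As a share of all counts the 34 genes took 2.02% to 2.06% in the knockdown libraries and 1.78% to 1.89% in the controls.

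**Figure D2:**
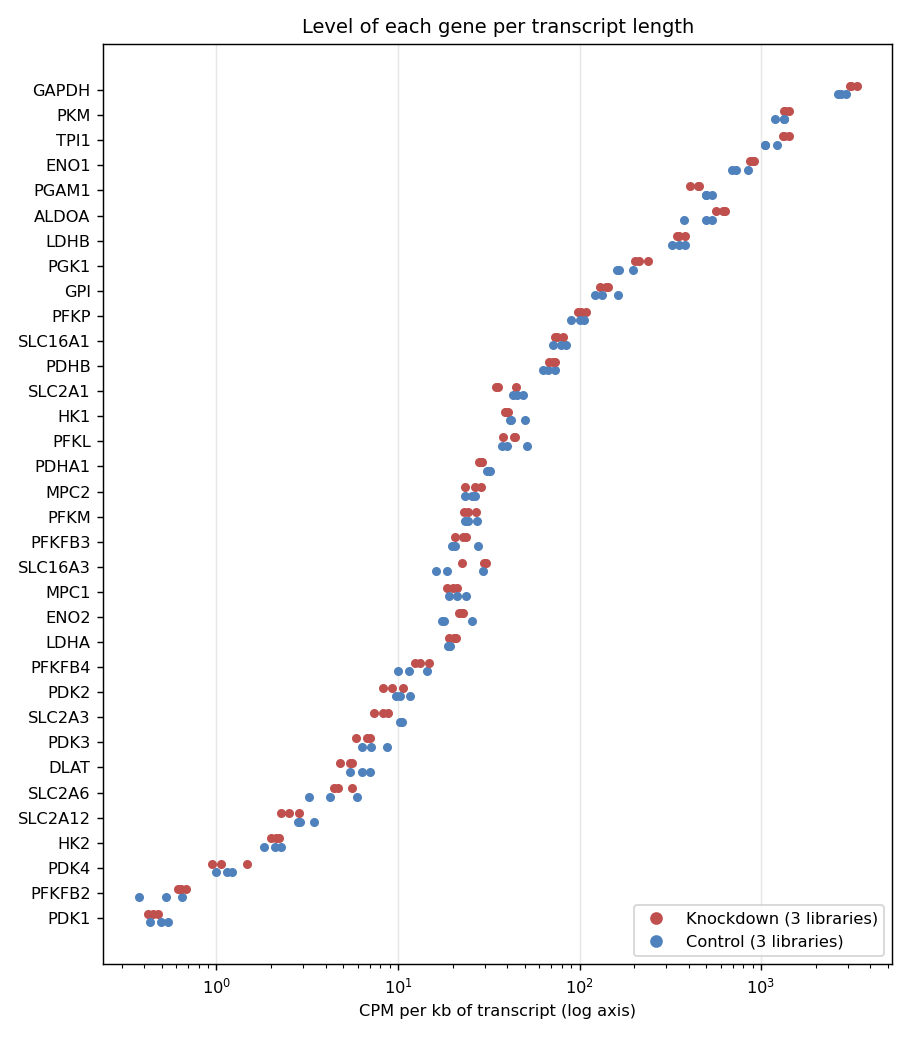
Level of the 34 genes in CPM per kilobase of transcript on a log axis, with 3 knockdown libraries and 3 control libraries as dots on adjacent rows, ordered by the control mean. GAPDH is at the top with a control mean of 2778 and PDK1 at the bottom with 0.490, and the groups lie close together at each gene relative to the spread between genes.

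None of the 4 glucose transporters was called; the fold change was below 0 for SLC2A1, SLC2A3 and SLC2A12 and above 0 for SLC2A6. SLC2A1, the widely expressed transporter GLUT1, was at 128, 163 and 131 CPM in the knockdown libraries, against 159, 180.1 and 167 CPM in the controls. Knockdown replicate 2 reached into the control range, so the groups overlapped (log2 fold change -0.26, SE 0.115, edgeR adjusted p = 0.304). SLC2A3, the high-affinity transporter GLUT3 best known from neurons, was at 29.02, 34.7 and 32.3 CPM in the knockdown, against 41.3, 40.1 and 40.4 CPM in controls. Here every knockdown library lay below every control, yet the difference did not pass (-0.34, SE 0.108, edgeR adjusted p = 0.167; 0.0634 by DESeq2). SLC2A12 was at 11.3 ± 1.32 and 13.6 ± 1.54 CPM, and SLC2A6 at 12.4 ± 1.497 and 11.3 ± 3.48 CPM (knockdown and control, SD, n = 3 each). SLC2A1 supplied most transporter transcript in either group: per kb, SLC2A3 made up 17.7% ± 1.09 of the sum of the pair in the knockdown and 18.5% ± 1.17 in controls.

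Hexokinase transcript came almost wholly from HK1. HK1, the constitutive isoform, was at 141, 146 and 141 CPM in the knockdown and 149, 182 and 152 CPM in controls, with all knockdown libraries below all controls by a small margin (-0.17, SE 0.103, edgeR adjusted p = 0.449). The HK1 value was -0.081 without control replicate 2 and -0.095 with length and GC content corrected. HK2, the inducible isoform that many tumours raise, was at 12.2 ± 0.633 and 11.9 ± 1.24 CPM (0.04, edgeR adjusted p = 0.935). Per kb it made up 5.09% ± 0.342 of the 2 hexokinases in the knockdown and 4.41% ± 0.266 in controls. GPI, which isomerises glucose 6-phosphate, was at 577 ± 32.6 and 582 ± 86.8 CPM.

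No difference was detected in the phosphofructokinases, whose groups overlapped. PFKP, the platelet-type subunit, was the most abundant at 273 ± 15.2 CPM in the knockdown and 263 ± 21.7 CPM in controls (0.05, 95% interval of the fold 0.893 to 1.21). PFKL, the liver type, stood at 122 ± 10.1 and 125 ± 21.3 CPM, and PFKM, the muscle type, at 88.6 ± 6.65 and 89.5 ± 7.42 CPM. PFKP held 60.7% ± 1.56 of the 3 subunits' transcript per kb in the knockdown and 59.4% ± 1.71 in controls. Among the bifunctional enzymes that set fructose 2,6-bisphosphate, the activator of phosphofructokinase, PFKFB3 was at 102 ± 7.35 and 103 ± 19.2 CPM and PFKFB4 at 48.3 ± 4.48 and 42.9 ± 8.17 CPM. PFKFB2, the least abundant of the 34 genes by CPM in controls, was at 4.38, 4.81 and 4.50 CPM in the knockdown and 4.60, 2.66 and 3.76 CPM in controls. The fold of PFKFB2 had the highest upper bound of all, 0.872 to 1.76, so a rise of that size could not be told from none.

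None of the 8 genes from aldolase to pyruvate kinase was called, although 7 of them had groups that did not overlap. Of the 8 genes, 6 had every knockdown library above every control, a separation seen for 11% of all genes tested; PGAM1 had the opposite separation, seen for 10.6%; and ENO2 overlapped. The median log2 fold change of the 8 genes was 0.22, and they share the same 6 libraries. Their summed level was 17237 to 17735 CPM in the knockdown libraries and 14362 to 16195 CPM in the controls. ALDOA, the muscle-type aldolase expressed in most tissues, was at 1598, 1430.1 and 1555 CPM in the knockdown, against 959, 1355 and 1268 CPM in controls (log2 fold change 0.36, SE 0.127, edgeR adjusted p = 0.217). TPI1, which interconverts the 2 trioses, was at 1745, 1617 and 1649 CPM, against 1291, 1499.7 and 1299 CPM (0.29, SE 0.0973, adjusted p = 0.187). In either gene the lowest control was replicate 1 and the highest control was replicate 2.

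GAPDH, the dehydrogenase step and a frequent reference gene in RT-qPCR, was at 5821, 6299.9 and 5838 CPM in the knockdown, against 4981, 5161 and 5482 CPM in controls. The separation was small, 0.20 on the log2 scale with SE 0.0900 (edgeR adjusted p = 0.315). PGK1, the first ATP-yielding step, was at 1164, 983 and 1042 CPM in the knockdown, against 789, 963 and 811 CPM in controls (0.32, SE 0.110, edgeR adjusted p = 0.209). The lowest knockdown library and the highest control, each of them replicate 2, were here close together. ENO1, the ubiquitous enolase, was at 2322, 2211 and 2268 CPM, against 1768, 2155 and 1861 CPM (0.23, SE 0.1001, adjusted p = 0.295). PKM, whose M1 and M2 splice forms a gene count cannot separate, was at 4023, 4294 and 4077 CPM, against 3611, 4011 and 4011 CPM (0.09, adjusted p = 0.690).

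PGAM1, which moves the phosphate of phosphoglycerate between carbons, went against its neighbours on the route. It was at 822, 838 and 745 CPM in the knockdown, against 914, 978 and 916 CPM in controls. All 3 knockdown libraries lay below all 3 controls (-0.22, SE 0.0930, edgeR adjusted p = 0.282). ENO2, the neuronal enolase, was at 64.2, 61.4 and 63.4 CPM in the knockdown and 49.1, 71.9 and 50.8 CPM in controls. Control replicate 2 alone exceeded the knockdown libraries in ENO2, and the other controls lay below them. ENO2 made up 2.44% ± 0.0127 of the 2 enolases per kb in the knockdown and 2.59% ± 0.289 in controls.

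**Figure D3:**
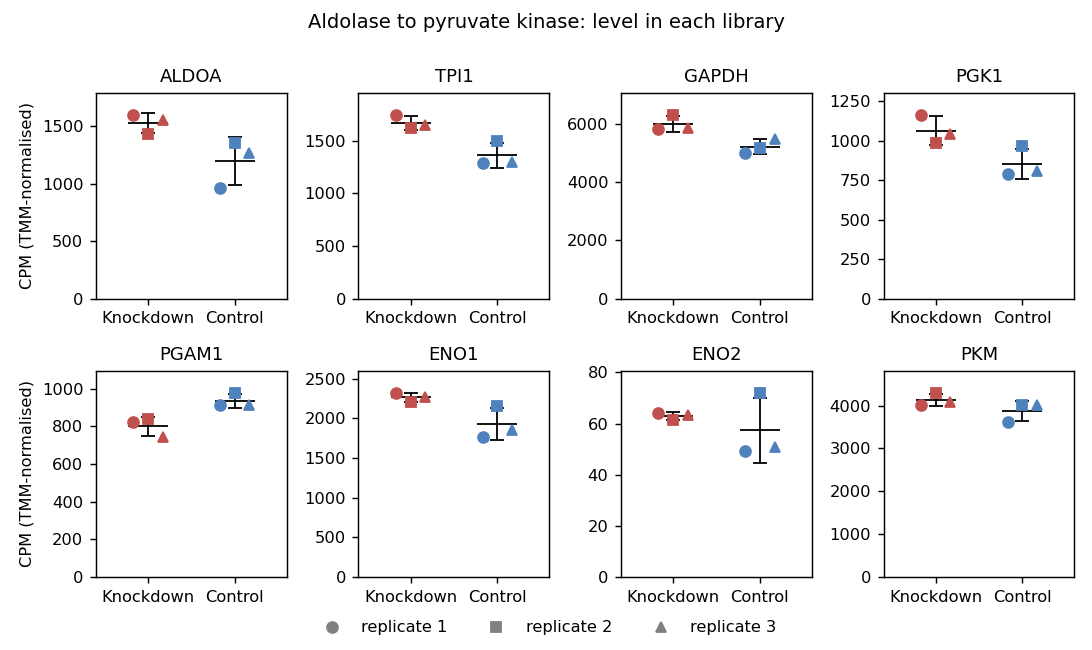
Level of the 8 genes from aldolase to pyruvate kinase in each library, in TMM-normalised CPM from 0; dots are libraries with shapes for the replicate number, and bars give mean ± SD of 3 libraries. The knockdown dots sit above the control dots for ALDOA, TPI1, GAPDH, PGK1, ENO1 and PKM, below them for PGAM1, and within their range for ENO2, where control replicate 2 is at 71.9.

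Counting could bear on some of these values. Exons of ALDOA share 1657 bases on the same strand with ENSG00000285043, whose count lay at 144 to 276 CPM in the knockdown and 155 to 314 CPM in controls. The 2 identifiers summed to 1742, 1707 and 1731 CPM in the knockdown and 1273, 1509 and 1474 CPM in controls, so the groups were also separate in the sum. Annotated pseudogenes named after the genes took at most 2.24% of the combined count for TPI1, 1.81% for LDHA and 0.348% for GAPDH. In all, 23 of the 34 genes share exon bases with another annotated gene, 18 of them with one on the opposite strand. Whether the counting used strand is not stated, so these counts are uncertain. The overlaps were searched in GENCODE 29, which placed 58394 of the 60612 identifiers. Overlap of any of the 34 genes with the other identifiers was not checked.

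By these counts, lactate dehydrogenase transcript was of the LDHB form for the most part. The tool and annotation that gave the counts are not stated, so the level of LDHA relative to LDHB may depend on how reads were assigned. That was not tested. LDHA, whose subunit is usually tied to lactate production, was at 46.1, 50.3 and 49.1 CPM in the knockdown and 46.6, 46.2 and 45.3 CPM in controls (0.08, SE 0.0976, edgeR adjusted p = 0.774). LDHB, the subunit prevailing in heart and brain, was at 589.7, 531 and 543 CPM in the knockdown and 589.8, 497 and 541 CPM in controls (0.03, SE 0.0993, edgeR adjusted p = 0.932). Per kb, LDHA made up 5.29% ± 0.492 of the pair in the knockdown and 5.14% ± 0.403 in controls (SD, n = 3 each). No library had an LDHA share above 5.69%. The 95% intervals of the fold were 0.908 to 1.22 for LDHA and 0.878 to 1.19 for LDHB.

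Of the lactate carriers, SLC16A1 (MCT1) overlapped between groups, and SLC16A3 (MCT4, the carrier typical of cells that export lactate) had the largest fold change of the 34 genes without passing the test. SLC16A1 was at 319.7, 327 and 353 CPM in the knockdown and 369, 313 and 344 CPM in controls (-0.04, 95% interval of the fold 0.839 to 1.13, edgeR adjusted p = 0.913). SLC16A3 was at 144, 108 and 148 CPM in the knockdown and 90.5, 141 and 78.0 CPM in controls (0.37, SE 0.199, edgeR adjusted p = 0.405). Control replicate 2 lay within the range of the knockdown libraries, while controls 1 and 3 were below every one of those. The knockdown libraries were spread as well, with an SD of 21.8 CPM against 33.5 CPM in controls. Without control replicate 2 SLC16A3 was called (0.66, edgeR adjusted p = 0.0441), in a fit that called 3.19% of all genes. Without control replicate 3 the value was 0.20 (edgeR adjusted p = 0.777). Exons of SLC16A3 share 482 bases with CSNK1D on the opposite strand, whose mean count was 17531 in the knockdown and 17638 in controls, above the 8523 and 6210 of SLC16A3. The share of SLC16A3 in the pair per kb was 29.01%, 23.0% and 27.5% in the knockdown and 18.2%, 29.02% and 17.04% in controls.

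**Figure D4:**
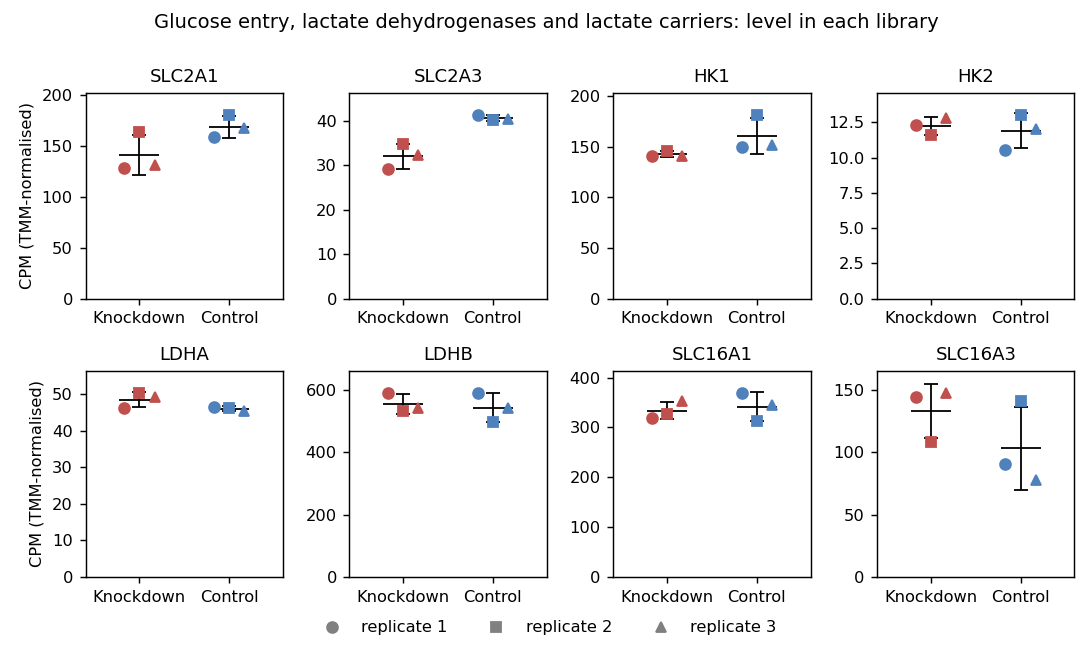
Level of 8 genes of glucose entry, lactate dehydrogenase and lactate transport in each library, in TMM-normalised CPM from 0; dots are libraries with shapes for the replicate number, and bars give mean ± SD of 3 libraries. SLC2A3 and HK1 have all knockdown dots below the controls, LDHA and LDHB overlap, and in SLC16A3 the square of control replicate 2, at 141, sits among the knockdown dots.

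At the mitochondrial gate, PDHA1, the catalytic alpha subunit of pyruvate dehydrogenase, was at 96.6, 92.9 and 95.3 CPM in the knockdown, against 107, 102 and 105 CPM in controls. The groups were separate by a small step (-0.14, SE 0.0891, edgeR adjusted p = 0.487). PDHB, the beta subunit, was at 108 ± 4.79 and 104 ± 7.98 CPM, and DLAT, the acetyltransferase core, at 23.5 ± 1.86 and 27.8 ± 3.47 CPM (-0.25, adjusted p = 0.391). The carrier subunits were at 23.8 ± 1.40 and 25.4 ± 2.87 CPM for MPC1 and at 57.2 ± 5.73 and 54.7 ± 3.43 CPM for MPC2. The log2 fold change of MPC1 depended on the fit. It was -0.09 (edgeR adjusted p = 0.783), -0.25 with length and GC content corrected (edgeR adjusted p = 0.149), and -0.17 to -0.0040 without single libraries. Of the inhibitory kinases, PDK2 was the most abundant at 32.2 ± 4.10 CPM in the knockdown and 36.3 ± 3.44 CPM in controls, followed by PDK3 at 12.6 ± 1.125 and 14.2 ± 2.305 CPM. PDK1, a classical HIF target, was at 5.94, 6.73 and 6.35 CPM in the knockdown and 7.71, 7.00 and 6.14 CPM in controls, and PDK4, which is induced by fasting in other tissues, at 5.25, 3.81 and 3.38 CPM and 4.37, 3.56 and 4.06 CPM. Both PDK1 and PDK4 overlapped between groups, with edgeR adjusted p of 0.777 and 0.954.

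With 3 libraries against 3, the smallest p an exact permutation test of an isoform share can give is 0.1, so no share could pass 0.05 and the values are a description. For the 8 shares computed per library (HK2, PFKP, ENO2, LDHA, SLC16A3, SLC2A3, PDK1 and PFKFB3, each within its family per kb), exact two-sided permutation tests over the 6 libraries gave p from 0.2 to 0.8, and 0.8 for each share after Benjamini-Hochberg adjustment. The shares with the smallest p were HK2, with a difference of 0.676 percentage points, and PFKFB3, at 61.4% ± 2.23 in the knockdown and 64.4% ± 1.07 in controls. PDK1 was 2.55% of the 4 kinases per kb in the knockdown and 2.5% in controls, or 11.5% and 11.3% by CPM without regard to length.

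The libraries differed along GC content and transcript length, and this touches the genes above. Of the 19 genes whose reference transcript has a GC content of at least 50%, control replicate 2 was above the control mean in 18 and control replicate 1 in 0. Of the 15 with lower GC content, control replicate 2 was above the control mean in 4 and control replicate 1 in 12. Across the 34 genes, which share the libraries and are no replicates, the deviation from the mean of the 6 libraries was set against GC content. Spearman's correlation was -0.08, 0.25 and 0.46 in knockdown replicates 1 to 3 and -0.66, 0.61 and -0.33 in control replicates 1 to 3. Over all expressed protein-coding genes it was -0.13, 0.19 and 0.018 in the knockdown and -0.56, 0.67 and -0.23 in controls, in the same order. With transcript length in place of GC content, the correlation over these protein-coding genes was -0.31, -0.11 and -0.046 in knockdown replicates 1 to 3. In control replicates 1 to 3 it was 0.30, -0.099 and 0.27. When length and GC content were corrected in each library, 3.44% of all genes and 0 of the 34 were called. The corrected log2 fold changes were 0.38 for ALDOA, 0.36 for PGK1, 0.26 for ENO1, 0.15 for TPI1, 0.13 for GAPDH, -0.27 for PGAM1, 0.41 for SLC16A3 and -0.28 for SLC2A3. The smallest corrected adjusted p was 0.0511, for PGAM1.

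**Figure D5:**
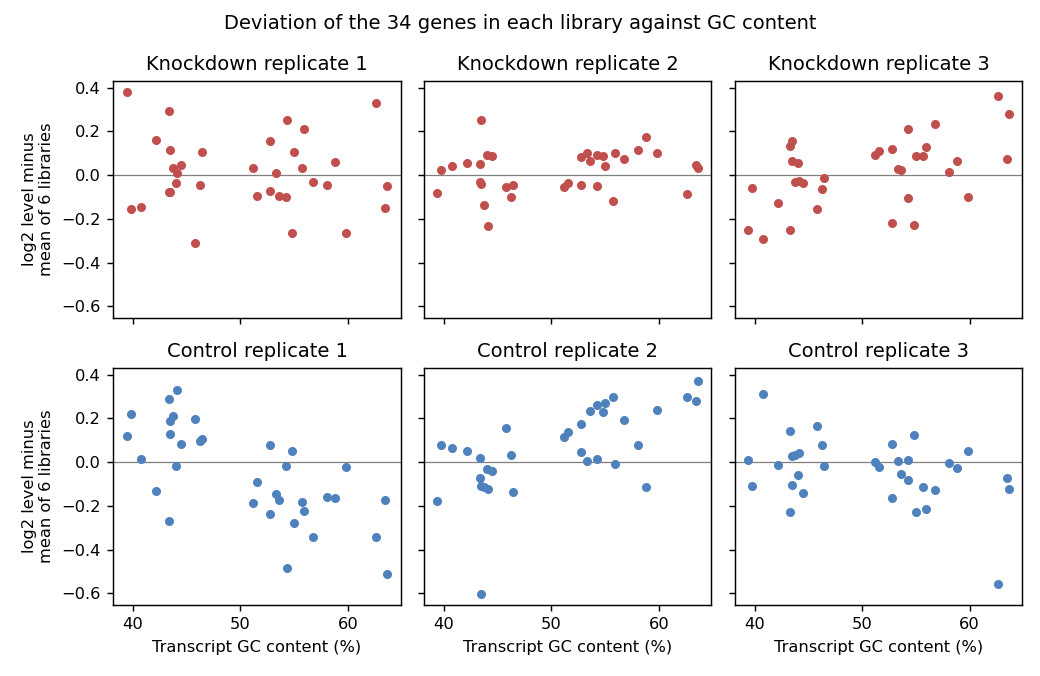
Deviation of the 34 genes in each library (log2 level minus the mean of the 6 libraries) against the GC content of the reference transcript in percent; knockdown libraries are in the upper row and controls in the lower row. The points fall with GC content in control replicate 1 (Spearman's correlation -0.66) and climb in control replicate 2 (0.61).

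Genes around the route were read from the same fit. Of 45 further genes of the pathway (other isoforms, carriers and phosphatases), 26 were tested and 0 called, with an unadjusted p under 0.05 for 2 genes on the high side and 3 on the low side, and a median log2 fold change of 0.0083. The tested genes with the smallest p were the transporter SLC2A10 (7.93 ± 0.352 CPM in the knockdown and 11.1 ± 0.668 CPM in controls, -0.49, edgeR adjusted p = 0.157), the ADP-dependent glucokinase ADPGK (40.5 ± 4.37 and 51.7 ± 2.75 CPM, -0.35, 0.171) and the phosphatase MINPP1 (30.6 ± 2.57 and 39.9 ± 6.33 CPM, -0.39, 0.207). Of 7 genes of the pentose phosphate pathway, a side branch of glycolysis, 0 were called. PGLS, the lactonase of that pathway, was at 124 ± 3.33 CPM in the knockdown and 108 ± 12.98 CPM in controls (0.20, edgeR adjusted p = 0.408). PGD, which oxidises 6-phosphogluconate, was at 179.9 ± 6.07 and 191 ± 17.7 CPM (-0.09, edgeR adjusted p = 0.743).

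Of 22 HIF factors, regulators and targets outside glycolysis, all tested, 1 was called higher and 0 lower. Over all genes, 0.451% and 0.203% were called in these directions, and the list median was 0.11. At an unadjusted edgeR p under 0.05 there were 5 of the 22 on the high side and 2 on the low side. Over all 17723 genes, 1444 and 1317 reached that level in these directions, or 15.6% in either direction. Every knockdown library lay above every control for 6 of the 22 (11% of all genes) and below for 1 (10.6%). The called gene was CA9, a hypoxia-induced carbonic anhydrase, at 13.3, 9.32 and 17.2 CPM in the knockdown and 1.83, 4.60 and 2.61 CPM in controls (2.14, SE 0.327, edgeR adjusted p = 0.0169). Of 8 other regulators of glycolytic genes, 7 were tested and 0 called. Among them MYC was at 28.0, 34.5 and 31.3 CPM in the knockdown and 17.01, 20.7 and 22.2 CPM in controls, above every control in each knockdown library (0.65, edgeR adjusted p = 0.0655). The arrestin-domain gene ARRDC4, known to respond to glucose, was at 6.76 ± 1.57 and 3.73 ± 0.175 CPM (0.86, adjusted p = 0.1004), and PPARGC1A, a coactivator of mitochondrial genes, at 10.8 ± 2.14 and 7.47 ± 1.95 CPM (0.53, 0.292).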

How the data were processed

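The deposited values are raw gene counts, whole numbers with no scaling. Reads were handled on GRCh38 with tools that include HISAT2 2.0.4, cutadapt 1.9, edgeR, DESeq2 and StringTie 1.3.4d, according to the submitters' processing notes, per the labels. The tool that wrote the counts, its annotation and its strand setting: not given in the sources used here. Per the labels' protocols, libraries were made by the strand-marking dUTP method from oligo(dT)-captured RNA and sequenced in pairs.

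Symbols came from the gene name table; coordinates, exon overlaps, lengths and GC content (longest principal transcript) from GENCODE 29. Genes were tested in R 4.3.3 by edgeR 4.0.16 (quasi-likelihood F test, two-sided, TMM, filterByExpr with a minimum count of 10, group as the only term, Benjamini-Hochberg adjustment over 17723 genes), and called at an adjusted p under 0.05. Alternatives used DESeq2 1.42.0 and limma 3.58.1. Shares were compared by exact two-sided permutation. Fits were repeated with other scalings, filters and tests, a replicate block, a loess correction of length and GC content (span 0.3, 11536 genes) and each library left out. CPM values are TMM-normalised; 3 counts correspond to 0.0457 to 0.0529 CPM, a floor that covers counting error only.

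The genes, the lists around them and the tests were chosen with earlier results of these data known. The genes named are TEAD3, all 34 genes, and from each list the called genes or else up to 3 with the smallest p (1 such gene is not reported here); VIM, CD44, GFAP and the myeloid markers were chosen after their values were seen.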

Additional observations from a re-analysis of the deposited data

How the results depend on the processing

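None of the 34 genes was called higher or lower in 15 of 16 alternative fits; without control replicate 2 the count of genes called higher was 1 (SLC16A3), so the fits without single libraries gave 0 to 1. Over all genes the count of calls was 116, against 31 with no filter on low counts, 872 by DESeq2, 609 with the length and GC correction (285 higher and 324 lower, against 80 and 36), 27 with control replicates 1 and 2 both left out (chosen after seeing the data, with the lone control assumed to vary like the knockdown libraries), and 20 to 589 without single libraries. The replicate number as a block gave 63 calls and 0 of the 34 genes. No pairing by number was seen, as deviations of libraries with the same number correlated at 0.0056, -0.017 and 0.0083. Such correlations cannot show whether the samples were handled in pairs. The cause of the differences in the count of calls was not tested.

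Direction held in all 16 alternatives for 21 of the 34 genes, among them the 8 with an unadjusted p under 0.05. All these fits reuse the same 6 libraries or part of them, so a held direction is no independent support. The other 13 lay between -0.13 (PDK1) and 0.14 (SLC2A6) on the log2 scale as reported. Without single libraries the log2 fold change spanned -0.052 to 0.40 for SLC2A6, -0.035 to 0.11 for HK2, -0.10 to 0.11 for GPI, -0.12 to 0.11 for PFKL, -0.077 to 0.051 for PFKM, -0.0086 to 0.11 for PFKP, -0.10 to 0.15 for PFKFB3, -0.031 to 0.094 for LDHB, -0.10 to 0.021 for SLC16A1, -0.15 to 0.18 for PDK4 and -0.0011 to 0.14 for MPC2. With the length and GC correction it was 0.080 for GPI, 0.070 for PFKM, 0.077 for PFKFB3, -0.044 for LDHB, 0.016 for SLC16A1 and -0.024 for PDHB. With control replicates 1 and 2 both left out it was 0.053 for GPI, 0.062 for PFKL, 0.016 for PFKM, 0.11 for PFKFB3 and 0.043 for PDK1. PFKFB3 was also at 0.0028 by limma-voom and 0.0017 with the replicate block. Differences in share spanned -0.237 to 0.0221 percentage points for ENO2, -0.0499 to 0.424 for LDHA and -0.0591 to 0.142 for PDK1 without single libraries. TEAD3 was not called with no filter (adjusted p = 0.0639) or with control replicates 1 and 2 left out (0.0922). Among the 10 genes whose groups did not overlap, ALDOA was at 0.22 and PKM at 0.042 without control replicate 1, and PDHA1 was at -0.083 and PKM at 0.15 with the length and GC correction; with control replicates 1 and 2 both left out GAPDH was at 0.12, PKM at 0.040 and HK1 at -0.095. SLC16A3 was then at 0.77.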
